A study of Mus musculus with 36 samples.

Results

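The stria vascularis of old mice was set against that of adult mice, and the change was followed across 4 classes of genes: transporters and channels, receptors, secreted factors and transcription factors. The comparison holds 6 of the 9 RNA-seq libraries of the series, 3 from mice of 26 months and 3 from mice of 9 months; the remaining 3, from mice of 1 month, are quoted only as levels. All mice were of the CBA strain, given as CBA/J by the study, of either sex and with no mutation, transgene or treatment named, and each library came from stria cells pooled from several cochleae. The values are RPKM, read numbers scaled to the length of the transcript and to the mapped reads of the library. Of 48709 genes in the table, the 15486 with at least 0.1 RPKM in at least 3 of the 6 libraries were tested with limma on log2(RPKM + 0.1), so every fold change below is on that scale and understates the change of genes near 0. A call needed both a p of 0.1 or less after Benjamini-Hochberg adjustment over all these genes and a log2 fold change of 1 or more in either direction.

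The stria vascularis lines the lateral wall of the cochlear duct. Its marginal cells secrete potassium into the endolymph, its intermediate cells are pigment cells whose potassium channel helps to generate the endocochlear potential, and its basal cells seal it from the fibrocytes of the spiral ligament, which return potassium to it through gap junctions. Capillaries, pericytes and resident macrophages run between these layers, and the thin Reissner's membrane is attached at its upper edge.

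Most libraries of an age were very alike. Over genes of at least 100 RPKM, pairs of 26-month libraries differed with a coefficient of variation of 1.15 to 1.98%, and A and C of 9 months with one of 1.90%, whereas 9-month B differed from A and C by 9.12 and 9.19%. The labels give 3 samples for each age, while the study's methods give 3 biological replicates in one place and fewer with technical repeats in another, so the p-values measure only the spread between these libraries, some or all of which may be technical. With near-identical libraries averaged, 1 sample was left at 26 months and 2 at 9 months, and 1070 of the 1148 called genes were still called by limma, in a fit where the lone 26-month sample is assumed to vary like those of the other ages. The reads behind each value are unknown. Xist, transcribed from the inactive X chromosome, lay between 0.550 and 0.625 RPKM at 26 months and between 1.18 and 2.05 RPKM at 9 months, and the Y-linked Ddx3y between 12.2 and 12.3 RPKM at 26 months and between 4.45 and 7.55 RPKM at 9 months. The share of each sex in the pools and age cannot be told apart.

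Marker levels moved with age too. Defining genes of the stria were abundant at both ages: the intermediate cell channel gene Kcnj10 had 311 to 313 RPKM at 26 months and 245 to 264 RPKM at 9 months, and the marginal cell channel gene Kcnq1 had 152 to 156 RPKM at 26 months and 164 to 178 RPKM at 9 months. The summed marginal cell list lay between 1876 and 1903 RPKM at 26 months and between 2043 and 2111 RPKM at 9 months, with 1 of 9 markers lower (Esrrb), and the summed intermediate cell list between 4466 and 4487 RPKM at 26 months and between 4360 and 4459 RPKM at 9 months. Basal cell markers summed to 850 to 864 RPKM at 26 months and 1552 to 1601 RPKM at 9 months, a large part of it from Gjb2, with 4 of 7 lower. Fibrocyte markers summed to 298 to 299 RPKM at 26 months and 675 to 706 RPKM at 9 months, with 9 of 12 lower. In bulk samples, fewer cells of a type and less RNA per cell cannot be told apart. Macrophage markers summed to 1166 to 1183 RPKM at 26 months and 364 to 375 RPKM at 9 months, most of it from Lyz2, with 6 of 14 higher. Neutrophil markers summed to 24.4 to 24.5 RPKM at 26 months and 7.35 to 9.48 RPKM at 9 months, with 7 of 9 higher. Red cell markers summed to 670 to 714 RPKM at 26 months and 366 to 457 RPKM at 9 months, with 3 of 6 higher. Spindle and root cell markers summed to 198 to 203 RPKM at 26 months and 158 to 183 RPKM at 9 months, with 2 of 6 lower (Epyc and Kcnj16). None of them was called higher, and the median log2 fold change of this list was -0.55, so its sum does not describe most of its markers. Schwann cell and nerve markers summed to 150 to 152 RPKM at 26 months and 112 to 126 RPKM at 9 months, with 1 of 4 tested higher. Hair and supporting cell markers summed to 2.75 to 3.80 RPKM at 26 months and 17.2 to 21.4 RPKM at 9 months, with 5 of the 6 tested markers lower and Slc26a5 and Tecta under 0.1 RPKM in all 6 libraries. A list for Reissner's membrane, made after the values were seen, summed to 17.7 to 18.7 RPKM at 26 months and 341 to 392 RPKM at 9 months, most of it from Vmo1, with 5 of 6 lower. The part of these shifts in the results below was not tested.

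**Figure D1:**
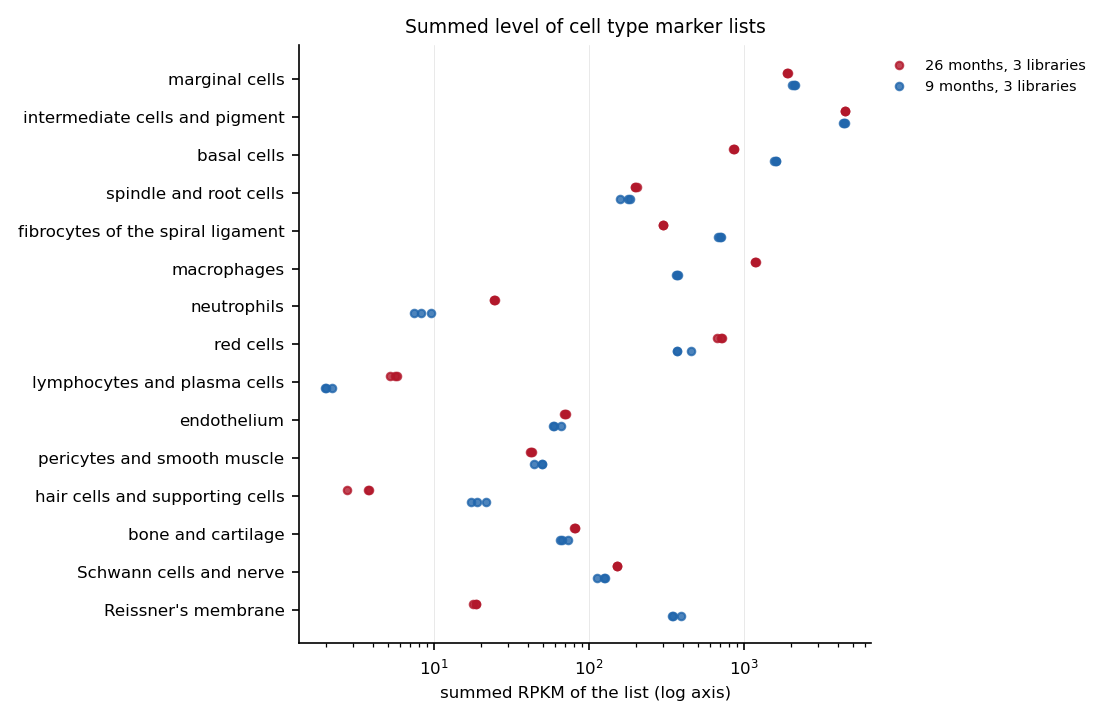
Summed RPKM of each cell type marker list (log axis), 1 point per library, with the 26-month libraries above the 9-month libraries in each row. The macrophage sums, mostly Lyz2, sit at 1166 to 1183 RPKM at 26 months against 364 to 375 RPKM at 9 months. The fibrocyte sums sit at 298 to 299 RPKM at 26 months against 675 to 706 RPKM at 9 months.

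Over all genes tested, 514 were called higher at 26 months (3.32%) and 634 lower (4.09%), 7.41% together, and the median log2 fold change was -0.03. Receptors were called more often than that in both directions, with 53 of 426 tested members higher (12.4%) and 42 lower (9.86%). Secreted factors had 44 of 398 higher (11.1%) and 48 lower (12.1%). Transporters and channels had 17 of 474 higher (3.59%) and 32 lower (6.75%). Transcription factors had 29 of 849 higher (3.42%) and 39 lower (4.59%), near the background in both directions. The median log2 fold changes of the classes were -0.01 for receptors, -0.10 for secreted factors, -0.04 for transporters and channels and -0.10 for transcription factors. Many of the called members are scarce transcripts: 75 of the 143 higher members of any class and 49 of the 161 lower ones stayed under 1 RPKM at the age where they were higher. With a pseudocount of 1 RPKM, which weighs such genes less, 104 of the 143 and 104 of the 161 were no longer called. Without any 1 of the 6 libraries, 119 of the 143 and 143 of the 161 were called every time. Smaller changes were common over all 15486 genes tested: at any fold, 9873 had a limma adjusted p of 0.1 or less. The 6 values did not overlap for 4579 genes higher and 5125 lower at 26 months, so neither sets a gene apart here.

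**Figure D2:**
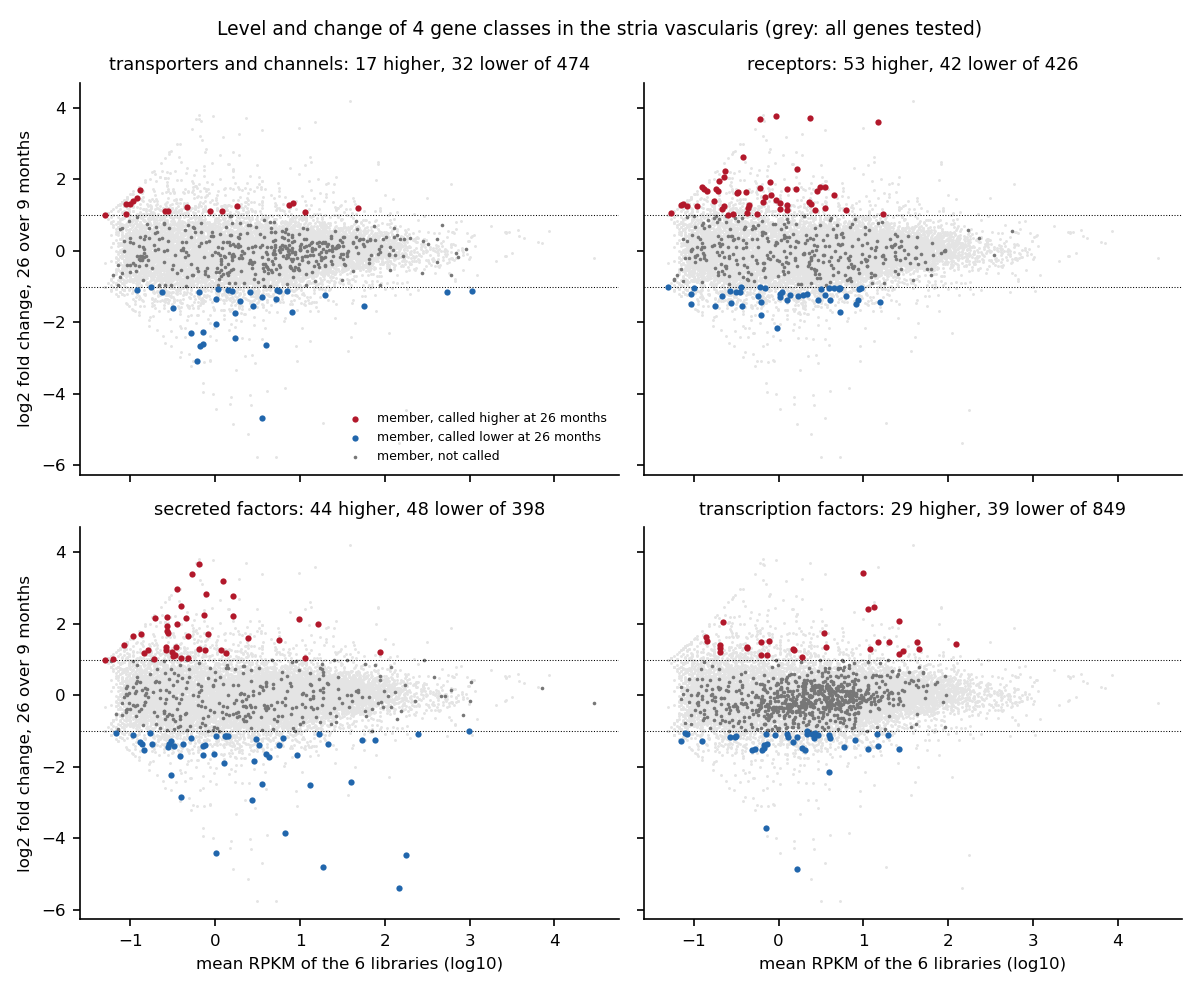
Log2 fold change, 26 over 9 months, against the log10 of the mean RPKM of the 6 libraries, 1 panel per class. Red and blue points are members called higher and lower at 26 months, dark grey points members not called and pale points all genes tested; 53 receptors are red and 42 blue, against 17 and 32 transporters and channels.

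**Figure D3:**
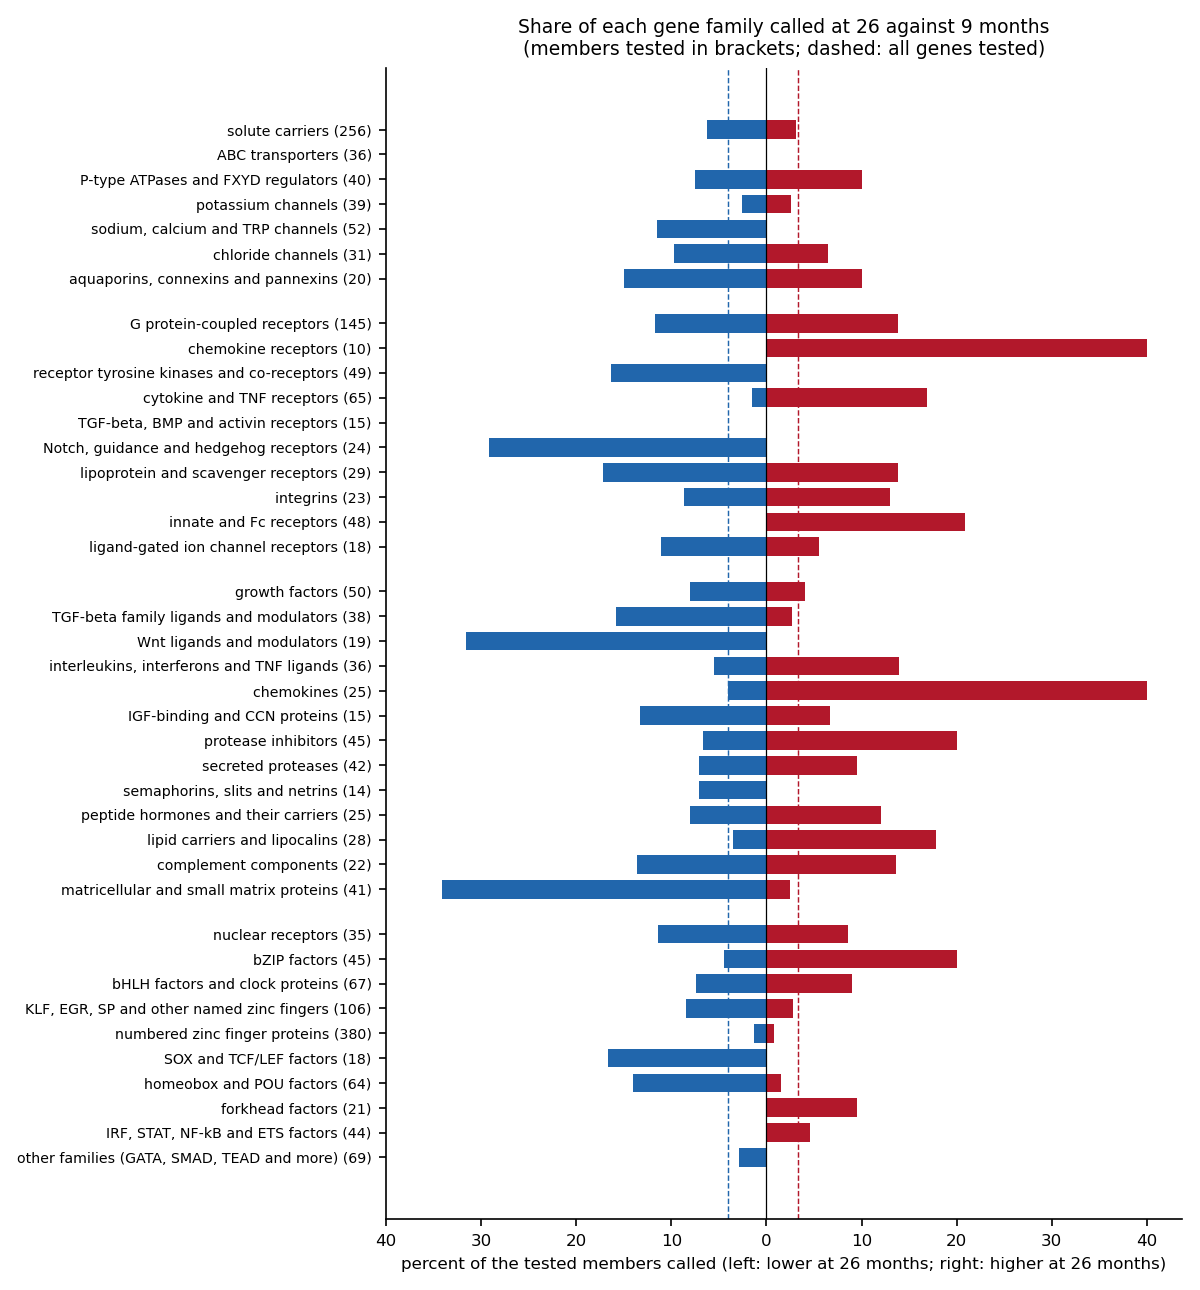
Percent of the tested members of each gene family called higher (red, to the right) or lower (blue, to the left) at 26 months, with the number tested in brackets and dashed lines at the 3.32% and 4.09% of all genes tested. Chemokines reach 40% to the right, and matricellular and small matrix proteins 34.1% to the left.

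Among transporters and channels, beta subunit genes of the pump that exchanges sodium for potassium were abundant. Of these, Atp1b2 and Atp1b1 were not called: Atp1b2 averaged 675 ± 7.32 RPKM at 26 months and 703 ± 6.01 RPKM at 9 months (SD, n = 3 libraries each here and below), and Atp1b1 had a log2 fold change of -0.62. Fxyd2, which encodes the gamma subunit that tunes the pump's affinity, had 68.3, 70.1 and 63.6 RPKM at 26 months, against 26.5, 34.8 and 26.4 RPKM at 9 months (log2 fold change 1.21, limma adjusted p = 7.79e-06). Every 26-month library lay above every 9-month library, as for 4579 of all 15486 genes tested. In 1-month stria Fxyd2 averaged 16.8 RPKM, so its 26-month level was the highest of the 3 ages. Of the P-type pumps, the plasma membrane calcium pump gene Atp2b2, known for its role in hair cells, fell to 0.1 to 0.125 RPKM at 26 months, against 1.18 to 1.23 RPKM at 9 months, and the hair and supporting cell list fell with it as given above.

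Solute carriers were the largest family, with 8 of 256 tested members higher and 16 lower. Slc26a7, a chloride and bicarbonate exchanger gene, had 0.150, 0.175 and 0.175 RPKM at 26 months, against 7.48, 5.18 and 8.05 RPKM at 9 months, a log2 fold change of -4.69 ± 0.15 (SE). The 26-month values were close to the detection filter of 0.1 RPKM. Slc26a7 belongs to the list for Reissner's membrane, as do the epithelial sodium channel subunit genes Scnn1b and Scnn1g. Scnn1b had 1.05, 1.10 and 0.950 RPKM at 26 months, against 6.98, 7.25 and 6.43 RPKM at 9 months (log2 fold change -2.62), and Scnn1g had a log2 fold change of -2.27, whereas the remaining subunit gene, Scnn1a, was not called (-0.57, limma adjusted p = 0.000213). Slc4a11, an electrogenic transporter whose human gene is mutated in a corneal dystrophy with deafness, had 29.3, 29.3 and 27.9 RPKM at 26 months, against 83.8, 87.5 and 80.6 RPKM at 9 months (limma adjusted p = 1.40e-07). At 1 month Slc4a11 averaged 9.42 RPKM, and it is one of the fibrocyte markers. The related bicarbonate transporter gene Slc4a10 also fell (log2 fold change -1.55).

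Carriers of hormones, amino acids and metals made up much of the rest. Slco1c1, a thyroxine carrier gene, had 3.70, 3.85 and 3.40 RPKM at 26 months, against 13.0, 11.2 and 12.7 RPKM at 9 months. Ttr, the gene of the thyroxine and retinol carrier transthyretin, fell to 1.15 to 1.20 RPKM at 26 months, against 34.2 to 38.5 RPKM at 9 months. Slc7a1, which takes up cationic amino acids, fell by 1.29 on the log2 scale, and Slc25a34, a mitochondrial carrier gene, by 1.34. The largest rises above 5 RPKM were in zinc transporters that move the metal in opposite directions. Slc30a2, which exports zinc from the cytosol, had 11.6, 11.9 and 11.7 RPKM at 26 months, against 4.53, 4.83 and 4.48 RPKM at 9 months (log2 fold change 1.33, limma adjusted p = 8.37e-07). Slc39a14, which imports zinc, manganese and iron, had 10.5, 10.4 and 10.5 RPKM at 26 months, against 4.43, 4.03 and 4.33 RPKM at 9 months (log2 fold change 1.28, limma adjusted p = 8.85e-08). The groups did not overlap for either gene, as for 1139 of the 1148 called genes. Over all 15486 genes tested, 4579 were higher and 5125 lower at 26 months without overlap. Slc11a1, a metal transporter of the macrophage phagosome, rose by log2 1.25, beside the macrophage sums given above. Slc6a20a fell to 0.1 to 0.150 RPKM at 26 months, against 1.23 to 1.43 RPKM at 9 months, while its close copy Slc6a20b rose but stayed at or under 0.2 RPKM, and how reads were shared between these copies is uncertain.

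Of 52 sodium, calcium and TRP channel genes tested, limma called none higher and 6 lower, among them Scnn1b, Trpm5, Scnn1g, Cacna2d2 and Cacna1e. At an unadjusted p under 0.05 and any fold, 12 were higher and 25 lower. Counts of this kind, here and below, stand beside a large background. Of all 15486 genes tested, 9873 had a limma adjusted p of 0.1 or less at any fold. Potassium channels had 1 of 39 higher, Kcna5, under 0.3 RPKM throughout, and 1 lower, Kcnj16. Kcnj16 encodes Kir5.1 and is a marker of the spindle and root cells, as is Epyc. Kcnj16 had 3.40, 3.50 and 3.65 RPKM at 26 months, against 8.23, 6.73 and 8.30 RPKM at 9 months (log2 fold change -1.11). The sum of the spindle and root list was higher at 26 months, although 5 of its 6 markers were lower and 1 higher at an unadjusted p under 0.05. Ttyh2, of the tweety family of membrane proteins, had 16.1, 16.1 and 15.2 RPKM at 26 months, against 7.30, 7.4 and 7.33 RPKM at 9 months, and its relative Ttyh3 moved the other way, with 0.3 to 0.375 RPKM at 26 months and 1.63 to 1.85 RPKM at 9 months. Bsnd, for the chloride channel subunit barttin of marginal cells, was not called (log2 fold change 0.26). Of the junction and water channel genes, Gjb2, for connexin 26, had 336, 337 and 334 RPKM at 26 months, against 752, 718 and 750 RPKM at 9 months. Aqp1, for the water channel aquaporin 1, had 0.425, 0.450 and 0.500 RPKM at 26 months, against 2.73, 3.30 and 2.75 RPKM at 9 months. Both stood apart in every library, as most called genes did and as 5125 of all genes tested did in the same direction. Gjb6, for connexin 30, moved less (log2 fold change -0.68) and was not called. Gjb2 is also a basal cell marker and gives a large part of that list's sum.

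Other abundant members that carry ions in marginal cells were not called. Slc12a2, the sodium, potassium and chloride cotransporter gene of marginal cells, had 905, 907 and 925 RPKM at 26 months, against 960, 716 and 1000 RPKM at 9 months, and the groups overlapped (log2 fold change 0.05, limma adjusted p = 0.731). The lowest of these was 9-month B, without which the log2 fold change was -0.10. Kcne1, the partner of Kcnq1, averaged 688 ± 2.86 RPKM at 26 months and 774 ± 18.6 RPKM at 9 months (log2 fold change -0.17). None of 36 ABC transporter genes was called by limma, though at an unadjusted p under 0.05 and any fold 9 were higher and 12 lower. Changes of any fold were common over all genes tested, with 9873 of 15486 at a limma adjusted p of 0.1 or less.

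Among the receptors that changed, most of those known from immune cells rose. Innate and Fc receptors had 10 of 48 tested members higher and none lower (30 and 5 at an unadjusted p under 0.05), with a median log2 fold change of 0.54, chemokine receptors 4 of 10 higher and none lower (6 and 2), and cytokine and TNF receptors 11 of 65 higher and 1 lower (30 and 23). Plaur, the urokinase receptor gene (chromosome 7, 24462484 to 24475968), had 4.33, 4.63 and 4.23 RPKM at 26 months, against 0.325, 0.250 and 0.175 RPKM at 9 months, a log2 fold change of 3.70 ± 0.16 (SE). Fcgr3, for a receptor of immunoglobulin G, had 8.18, 8.58 and 8.80 RPKM at 26 months, against 3.58, 3.90 and 3.95 RPKM at 9 months (log2 fold change 1.14). Lilrb4a, for an inhibitory receptor of myeloid cells, had 6.78, 6.70 and 7.05 RPKM at 26 months, against 2.23, 2.05 and 2.48 RPKM at 9 months. Its neighbour Lilr4b is a close copy, so the share of reads of each is uncertain. Il2rg, the common chain of several interleukin receptors, had 2.8, 2.8 and 2.70 RPKM at 26 months, against 0.525, 0.525 and 0.425 RPKM at 9 months, and the T cell chemokine receptor gene Cxcr6 had 1.80, 1.83 and 1.85 RPKM at 26 months, against 0.025, 0.075 and 0.025 RPKM at 9 months. Itgb2, the beta2 integrin chain of leukocytes, rose by log2 1.67, and Cd14 and Cd163l1 rose with it, the last listed at 0 in all 9-month libraries and at 1.13 to 1.28 RPKM at 26 months. The lymphocyte marker list summed to 5.15 to 5.78 RPKM at 26 months and 1.98 to 2.18 RPKM at 9 months, beside the macrophage and neutrophil sums given above. The macrophage receptor gene Csf1r, by contrast, had 5.28 to 5.83 RPKM at 26 months and 4.65 to 5.35 RPKM at 9 months and was not called, whereas the lysozyme gene Lyz2 was 938 to 960 RPKM at 26 months and 254 to 262 RPKM at 9 months.

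G protein-coupled receptors changed in both directions, with 20 of 145 higher and 17 lower, and 24 of these 37 stayed under 1 RPKM at both ages. S1pr1, the sphingosine 1-phosphate receptor gene of endothelium and lymphocytes, had 22.5, 22.9 and 23.1 RPKM at 26 months, against 11.6, 10.7 and 11.1 RPKM at 9 months (log2 fold change 1.03, limma adjusted p = 1.40e-07), and S1pr3, of the same family, rose by log2 1.32. The endothelial list summed to 68.9 to 70.6 RPKM at 26 months and 58.7 to 65.5 RPKM at 9 months, with none of 8 markers called by limma and 2 higher and 2 lower at an unadjusted p under 0.05. Gpr157 had 4.88, 4.60 and 5.00 RPKM at 26 months, against 1.35, 1.48 and 1.18 RPKM at 9 months. Fzd7, a Wnt receptor gene, had 2.13, 2.35 and 2.15 RPKM at 26 months, against 5.83, 5.85 and 5.93 RPKM at 9 months (log2 fold change -1.37), and Fzd2 and the planar polarity cadherins Celsr1 and Celsr2 fell as well, by 1.22, 1.23 and 1.16 on the log2 scale.

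Of 24 Notch, guidance and hedgehog receptor genes, limma called 7 lower and none higher (16 and 4 at an unadjusted p under 0.05), and the family's median log2 fold change was -0.52. Cdon, a co-receptor of hedgehog ligands, had 2.33, 2.48 and 2.53 RPKM at 26 months, against 8.70, 7.55 and 8.28 RPKM at 9 months. The semaphorin receptor genes Plxna1 and Plxnb1 had 4.63 to 4.75 and 3.55 to 3.6 RPKM at 26 months, against 11.95 to 12.65 and 8.43 to 9.10 RPKM at 9 months. Notch1, Notch2 and Notch3 fell by 1.23, 1.07 and 1.25 on the log2 scale, and Plxna3 by 1.03. Receptor tyrosine kinases and their co-receptors had 8 of 49 lower and none higher (26 and 12 at an unadjusted p under 0.05), led by Ptk7, a co-receptor of Wnt signalling, with 1.65, 1.5 and 1.55 RPKM at 26 months, against 4.08, 4.38 and 4.10 RPKM at 9 months. Of these 8, 4 (Ntrk2, Fgfr4, Epha7 and Pdgfrl) were not called when some single library was left out. None of the 15 TGF-beta, BMP and activin receptor genes was called by limma, with 4 higher and 6 lower at an unadjusted p under 0.05. Tnfrsf11b, for the secreted decoy receptor osteoprotegerin, was the only cytokine or TNF receptor gene called lower, with 8.25, 8.43 and 8.28 RPKM at 26 months, against 24.0, 18.7 and 25.7 RPKM at 9 months (log2 fold change -1.43, limma adjusted p = 2.48e-06).

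Lipoprotein and scavenger receptors divided, with 4 of 29 higher and 5 lower. Lrp3 had 5.73, 5.28 and 5.43 RPKM at 26 months, against 1.35, 1.80 and 1.43 RPKM at 9 months (log2 fold change 1.79). The scavenger receptor genes Cd36 and Msr1 rose at lower levels, by log2 1.72 and 1.64. The most abundant receptor genes were not called: Itgb5 averaged 666 ± 7.11 RPKM at 26 months and 452 ± 15.8 RPKM at 9 months, Lrp2, for megalin, 331 ± 2.24 RPKM at 26 months and 361 ± 5.05 RPKM at 9 months, and Tnfrsf21 261 ± 0.288 RPKM at 26 months and 205 ± 1.32 RPKM at 9 months.

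Of 41 matricellular and small matrix proteins, 14 fell and Ecm1 rose, with a median log2 fold change of -0.53. Dcn, the gene of the proteoglycan decorin (chromosome 10, 97479609 to 97518143), had 12.9, 12 and 12.7 RPKM at 26 months, against 70.8, 63.5 and 68.6 RPKM at 9 months (log2 fold change -2.42). Efemp1, for the fibulin 3 matrix protein, had 3.83, 3.73 and 3.93 RPKM at 26 months, against 23.8, 19.8 and 24.0 RPKM at 9 months. Epyc, a proteoglycan gene of root cells, had 3.78, 4.05 and 4.98 RPKM at 26 months, against 15.4, 10.1 and 16.4 RPKM at 9 months. Epyc at 1 month averaged 15.3 RPKM, near its 9-month level, whereas Dcn averaged 14.9 RPKM and Efemp1 5.16 RPKM, near their 26-month levels. Vmo1 fell to 14.8 to 15.6 RPKM at 26 months, against 320 to 373 RPKM at 9 months, and Coch, Otos, Ogn, Lum and Postn fell by 1.09, 1.24, 1.40, 1.38 and 1.23 on the log2 scale. The fibrocyte sums given above moved the same way, and Coch and Otos are among that list's defining markers. Ecm1 had 8.35, 8.48 and 8.20 RPKM at 26 months, against 2.70, 3.28 and 2.48 RPKM at 9 months.

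Of morphogens and their antagonists, those that moved mostly fell. Wnt ligands and modulators had 6 of 19 lower and none higher (15 and 2 at an unadjusted p under 0.05, median log2 fold change -0.61), and TGF-beta family ligands and modulators 6 of 38 lower and 1 higher (-0.46). Dkk2, a Wnt antagonist gene, had 1.05, 1.10 and 0.925 RPKM at 26 months, against 6.33, 6.05 and 5.98 RPKM at 9 months. Sostdc1, for an antagonist of BMP and Wnt signals, had 3.80, 3.85 and 3.53 RPKM at 26 months, against 8.43, 9.23 and 8.53 RPKM at 9 months. The other lower Wnt genes, Rspo2, Wnt4, Wnt2b, Sfrp1 and Frzb, lay between 0.1 and 2.05 RPKM in all 6 libraries, with log2 fold changes from -1.41 to -1.14. Of growth factors, Nrg2, a neuregulin gene, rose to 2.75 to 2.93 RPKM at 26 months, against 0.250 to 0.400 RPKM at 9 months. Manf, for a factor secreted under endoplasmic reticulum stress, had 10.4, 10.6 and 10.8 RPKM at 26 months, against 22.6, 22.0 and 22.9 RPKM at 9 months (log2 fold change -1.08).

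Chemokines rose in 10 of 25 tested members and fell in 1. All 10 that rose stayed under 1 RPKM in mean level at both ages, among them Ccl2, Ccl3, Ccl4, Ccl8 and Cxcl2, and none was called with a pseudocount of 1 RPKM. Without 9-month B, Ccl2 was not called, Cxcl9 was not called when any 1 of 4 libraries was left out, and Ccl17 was not called without 26-month B, where its log2 fold change was 0.80. The exception in direction, Ccl11, for the eosinophil chemoattractant eotaxin that fibroblasts secrete, was more abundant, with 0.550, 0.625 and 0.525 RPKM at 26 months, against 4.90, 4.83 and 5.05 RPKM at 9 months (log2 fold change -2.92, limma adjusted p = 6.79e-09). Protease inhibitors had 9 of 45 higher, 6 of them serpins of the Serpina1 and Serpina3 clusters, whose near-identical copies make the share of each uncertain, and 4 of the 9 were not called when some single library was left out. The abundant member of this family that changed was Serpinh1, a collagen chaperone placed there by its symbol. Serpinh1 had 32.0, 31.4 and 30.9 RPKM at 26 months, against 72.5, 81.2 and 72.5 RPKM at 9 months. A2m, the alpha2-macroglobulin gene, had 1.98, 1.93 and 1.95 RPKM at 26 months, against 6.70, 6.40 and 6.85 RPKM at 9 months. Complement genes went both ways in close copies: C1rb rose (log2 fold change 3.19) while C1ra fell (-1.90), and C1s1 was listed at 0 in every 26-month library and at 1.88, 1.93 and 2.35 RPKM at 9 months, so how their reads were assigned is uncertain.

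Crhbp, the binding protein gene of corticotropin-releasing hormone, had 6.50, 6.93 and 6.68 RPKM at 26 months, against 284, 285 and 283 RPKM at 9 months. Agt, the angiotensinogen gene (chromosome 8, 124556534 to 124569706), had 122.98, 121.68 and 122.28 RPKM at 26 months, against 50.4, 59.5 and 49.2 RPKM at 9 months, with a log2 fold change of 1.21 ± 0.07 (SE) and a limma adjusted p of 1.38e-06. The genes of insulin-like growth factor binding proteins moved apart. Igfbp3 had 26.1, 25.2 and 26.3 RPKM at 26 months, against 6.48, 5.85 and 6.78 RPKM at 9 months (log2 fold change 2.01). Igfbp2 had 11.6, 11.95 and 11.7 RPKM at 26 months, against 29.2, 33.6 and 29.2 RPKM at 9 months (log2 fold change -1.38). Adamts1, for a protease that cuts matrix proteoglycans, had 15.4, 15.4 and 15.8 RPKM at 26 months, against 7.65, 7.03 and 7.88 RPKM at 9 months. Mmp15, for a membrane-anchored metalloprotease, had 1.80, 2.08 and 1.83 RPKM at 26 months, against 5.80, 6.88 and 5.78 RPKM at 9 months. Without 9-month B the log2 fold change of Adamts1 was 0.99, short of the call. Clu, the chaperone clusterin, was among the most abundant secreted genes that fell, with 661, 653 and 673 RPKM at 26 months, against 1336, 1365 and 1289 RPKM at 9 months. Its log2 fold change was -1.01, and it was -0.995 without 26-month B, -0.99 without 9-month B and -0.89 with quantile normalization, all short of the call. Of the other secreted genes with the highest levels, none of these 3 was called: Ptgds had 27057 to 27505 RPKM at 26 months and 29716 to 35252 RPKM at 9 months, Spp1 7606 to 7764 RPKM at 26 months and 6251 to 6870 RPKM at 9 months, and Apoe 1144 to 1180 RPKM at 26 months and 855 to 984 RPKM at 9 months.

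Transcription factors of the bZIP family rose in 9 of 45 tested members and fell in 2, a family that includes the immediate early AP-1 proteins and the C/EBP and small Maf proteins. At an unadjusted p under 0.05 and any fold, 17 were higher and 14 lower, and the family's median log2 fold change was 0.02. Junb (chromosome 8, 84974484 to 84978718) had 43.0, 41.0 and 44.2 RPKM at 26 months, against 9.80, 10.7 and 9.65 RPKM at 9 months, with a log2 fold change of 2.08 ± 0.07 (SE). Jund, the most abundant transcription factor gene at 26 months, had 186, 179 and 179 RPKM at 26 months, against 59.3, 77.7 and 63.6 RPKM at 9 months. Fos rose by log2 2.41. Cebpb had 40.9, 40.1 and 42.5 RPKM at 26 months, against 15.1, 20.6 and 16.5 RPKM at 9 months. Cebpd, which is induced in the acute-phase response, had 5.48, 5.25 and 5.45 RPKM at 26 months, against 1.38, 1.73 and 1.55 RPKM at 9 months. Mafk had 36.4 to 37.2 RPKM at 26 months and 16.1 to 17.0 RPKM at 9 months. The 9 higher bZIP genes were called without any 1 library, a weak check where libraries are near-identical. Outside the family, the immediate early genes Egr1 and Nr4a1 rose, Nr4a1 with 22.5, 21.2 and 21.9 RPKM at 26 months, against 7.73, 8.25 and 7.33 RPKM at 9 months.

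Of called genes tied to the circadian clock, the repressor and output genes named here rose, and Npas2 fell. Ciart, a repressor of the clock, had 18.1, 18.2 and 17.6 RPKM at 26 months, against 1.60, 1.58 and 1.55 RPKM at 9 months. Bhlhe40, another repressor, had 63.5, 62.6 and 61.8 RPKM at 26 months, against 22.4, 22.4 and 21.9 RPKM at 9 months (log2 fold change 1.49, limma adjusted p = 4.43e-09). Dbp, an output factor, had 16.9, 16.9 and 16.9 RPKM at 26 months, against 6.6, 7.05 and 6.95 RPKM at 9 months. Klf15, a glucocorticoid-induced factor with a daily rhythm in other tissues, had 63.4 to 64.8 RPKM at 26 months and 25.3 to 26.7 RPKM at 9 months. Npas2, a partner of the core activator, fell by 1.11 on the log2 scale. Of further clock genes, named after their values were seen, none was called: Arntl, for the core activator itself, had 3.80 to 3.98 RPKM at 26 months and 6.25 to 6.98 RPKM at 9 months (log2 fold change -0.76), Per2 had 7.28 to 7.58 RPKM at 26 months and 3.48 to 3.85 RPKM at 9 months (0.99, called in 8 of 18 alternatives, with near-identical libraries averaged among them), and Nr1d1 had 60.0 to 61.1 RPKM at 26 months and 37.7 to 41.2 RPKM at 9 months (0.64).

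Promoters of 4 transcription factor genes that changed are shown to set the letters of 2 well-known response elements beside the values. The 250 bases before the start were taken from RefSeq on GRCm38.p6 and searched on both strands for CACGTG, the E-box bound by clock proteins, and TGACG, the core of the cyclic AMP response element. The motifs can share letters only at their ends. For 60.7% of 25174 windows checked, the bases that follow were found in a GENCODE transcript of the same gene, not necessarily at its first base. The exact start is therefore uncertain, most of all for the rest. Of the 29 transcription factor genes called higher, 20 had a promoter in that set, of which 6 held the E-box (30%, against 9.57% of the 11212 tested genes with a promoter and 6.86% of all 27025) and 9 held TGACG (45.0%, against 29.0% and 19.8%). Of the 39 called lower, 33 had a promoter, of which 2 held the E-box (6.06%) and 9 held TGACG (27.3%). A match is only a description of the letters. Fos (chr12:85473640-85473889, plus strand), Junb (chr8:84978749-84978998, minus strand), Ciart (chr3:95882229-95882478, minus strand) and, among genes that fell, Klf4 (chr4:55532476-55532725, minus strand) are written 5′ to 3′ on the transcribed strand, with the motifs in capitals on whichever strand they lie.
Fos: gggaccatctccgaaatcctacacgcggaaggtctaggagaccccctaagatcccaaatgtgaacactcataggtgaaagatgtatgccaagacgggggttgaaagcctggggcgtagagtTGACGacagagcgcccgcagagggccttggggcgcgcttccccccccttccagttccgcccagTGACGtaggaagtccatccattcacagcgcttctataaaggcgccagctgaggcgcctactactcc
Junb: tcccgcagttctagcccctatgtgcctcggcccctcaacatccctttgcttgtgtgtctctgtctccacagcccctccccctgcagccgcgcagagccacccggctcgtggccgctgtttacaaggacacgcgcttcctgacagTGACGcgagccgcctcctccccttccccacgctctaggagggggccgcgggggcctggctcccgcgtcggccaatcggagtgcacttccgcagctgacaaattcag
Ciart: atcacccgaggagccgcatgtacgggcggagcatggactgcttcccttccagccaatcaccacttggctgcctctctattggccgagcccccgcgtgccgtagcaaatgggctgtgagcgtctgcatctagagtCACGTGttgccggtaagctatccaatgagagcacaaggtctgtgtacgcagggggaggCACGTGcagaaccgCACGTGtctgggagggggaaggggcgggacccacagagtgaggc
Klf4: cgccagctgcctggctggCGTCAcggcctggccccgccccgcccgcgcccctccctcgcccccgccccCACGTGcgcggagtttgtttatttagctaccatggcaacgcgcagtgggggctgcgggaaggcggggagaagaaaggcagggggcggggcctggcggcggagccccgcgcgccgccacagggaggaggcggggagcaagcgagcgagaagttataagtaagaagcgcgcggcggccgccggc

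In the sequences shown, Ciart held 3 E-boxes within its last 116 bases before the start, Fos held 2 copies of TGACG, Junb 1, and Klf4 1 of each motif. Klf4, a zinc finger factor of epithelial cells, had 6, 5.55 and 5.95 RPKM at 26 months, against 16.6, 16.8 and 17.1 RPKM at 9 months (log2 fold change -1.51, limma adjusted p = 3.52e-08).

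Homeobox and POU factors had 9 of 64 lower and 1 higher, and SOX and TCF/LEF factors 3 of 18 lower and none higher (10 and 5 at an unadjusted p under 0.05). Otx2, a homeobox gene in the list for Reissner's membrane, was at 0, 0.025 and 0.025 RPKM at 26 months, against 3.58, 2.98 and 3.25 RPKM at 9 months. Emx2 was at 0 to 0.050 RPKM at 26 months and 1.25 to 1.5 RPKM at 9 months. Pou3f4, a gene of spiral ligament fibrocytes whose human counterpart is mutated in X-linked deafness, had 4.68, 4.73 and 4.78 RPKM at 26 months, against 11.5, 11.2 and 11.4 RPKM at 9 months. Sox8 had 3.15, 2.85 and 3.30 RPKM at 26 months, against 8.33, 8.83 and 8.5 RPKM at 9 months, and was also one of the basal cell markers. Nuclear receptors gave 3 higher and 4 lower of 35. Esrrb, a marginal cell factor mutated in a human recessive deafness (chromosome 12, 86361117 to 86521628), had 13.6, 13.8 and 13.8 RPKM at 26 months, against 39.1, 39.6 and 38.0 RPKM at 9 months (log2 fold change -1.5 ± 0.03, SE). Rarg, a retinoic acid receptor gene, had 1.40, 1.28 and 1.40 RPKM at 26 months, against 6.50, 6.78 and 5.93 RPKM at 9 months, and Nr2f1 and Nr2f2 fell by 1.14 and 1.11 on the log2 scale. Pparg, for the adipogenic and macrophage receptor, rose to 0.900 to 1.00 RPKM at 26 months, against 0.250 to 0.3 RPKM at 9 months.

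Among bHLH factors, Scx, a tendon and ligament factor gene, had 29.5, 30.4 and 28.8 RPKM at 26 months, against 8.90, 12.4 and 10.02 RPKM at 9 months, so it rose (log2 fold change 1.5) where the matrix genes above fell, and Twist1, a mesenchymal factor gene, fell by 1.52 on the log2 scale. Srebf2, for a factor of cholesterol synthesis, fell by 1.10 on the log2 scale. Max, the partner of Myc, had 8.18, 8.13 and 7.55 RPKM at 26 months, against 22.7, 19.4 and 22.8 RPKM at 9 months, and Myc itself stayed under 0.8 RPKM and rose (log2 fold change 1.31). The 380 numbered zinc finger proteins, by far the largest family, had 3 higher and 5 lower, under the background share in both directions, and a median log2 fold change of -0.11. Among those 5, Zfp760 had 0.925, 0.950 and 1.00 RPKM at 26 months, against 2.53, 1.60 and 2.90 RPKM at 9 months, and its log2 fold change of -1.17 was -0.998 and short of the call without 9-month C. Tead2 had 1.30 to 1.53 RPKM at 26 months and 2.88 to 3 RPKM at 9 months, and its log2 fold change of -1.01 was -0.95 without 26-month C, -0.99 without 9-month B, -0.88 after quantile normalization and -0.96 under median of ratios scaling, all short of the call. Of the abundant factors, Nfe2l1 differed little, with 95.1 to 96.0 RPKM at 26 months and 93.1 to 94.8 RPKM at 9 months (log2 fold change 0.02, limma adjusted p = 0.669), and Hif1a had 105 to 107 RPKM at 26 months and 57.1 to 85.9 RPKM at 9 months, the lowest value being 9-month B (log2 fold change 0.53).

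**Figure D4:**
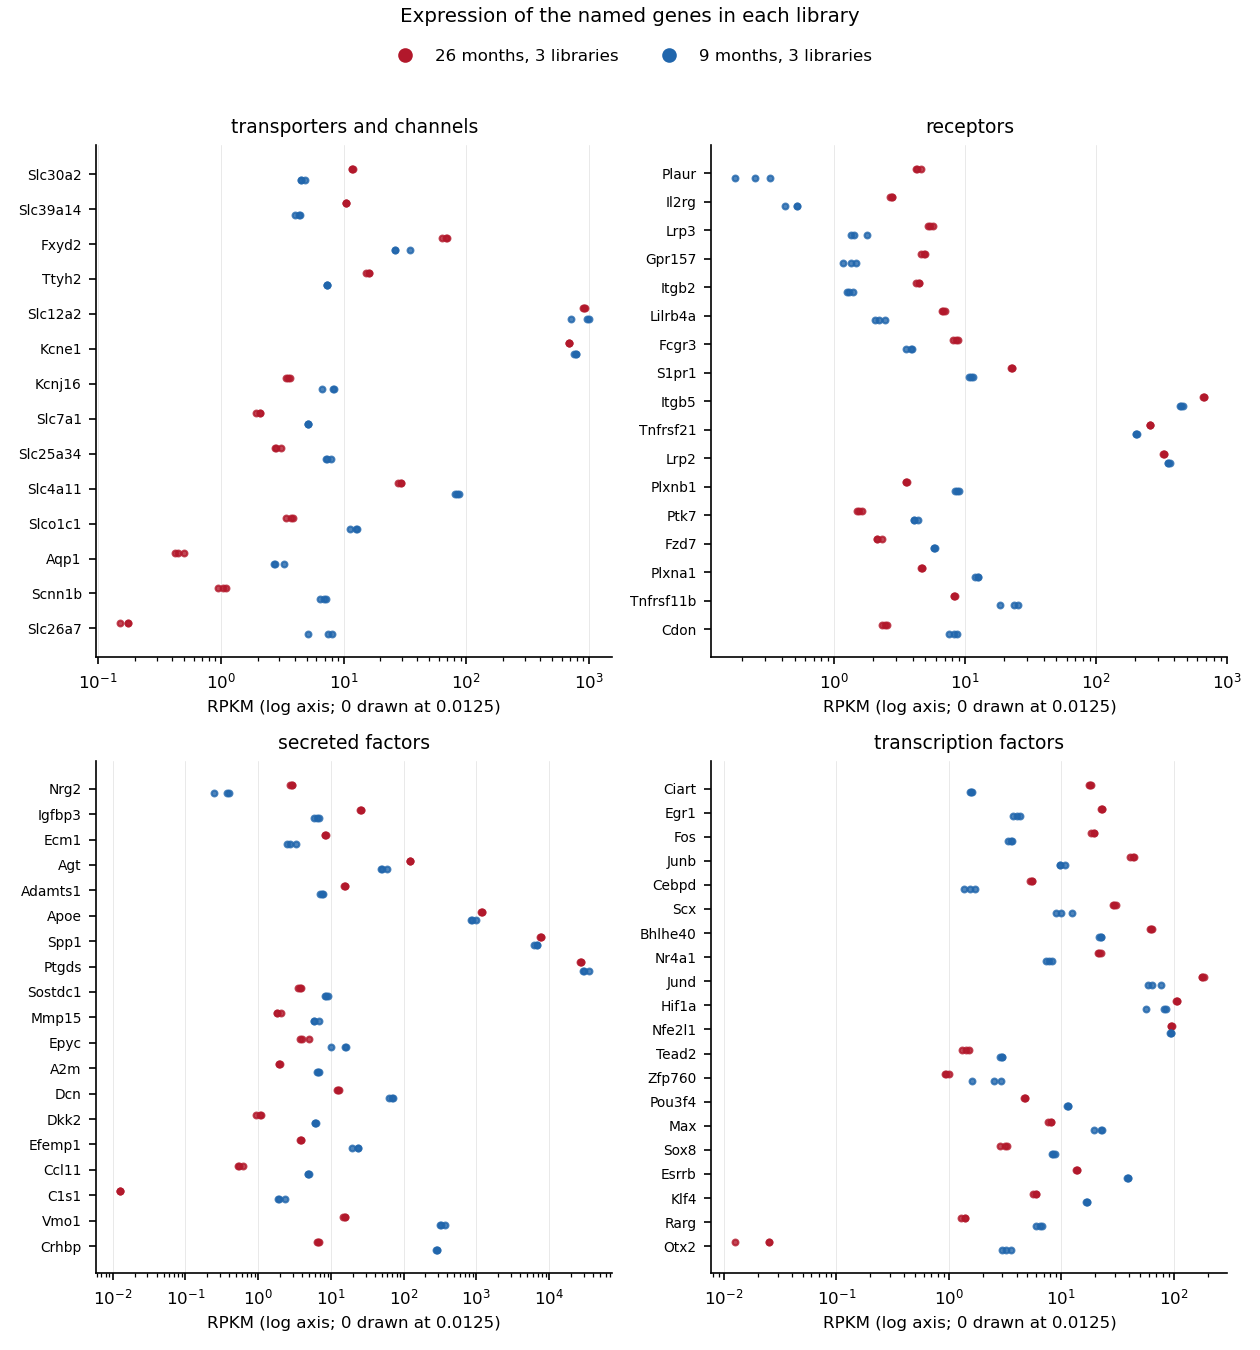
RPKM of genes named in the text in each of the 6 libraries (log axis, values of 0 drawn at the low end of the axis), in 4 panels by class, with the 26-month points above the 9-month points and genes ordered by log2 fold change. Slc4a11 sits at 27.9 to 29.3 RPKM at 26 months against 80.6 to 87.5 RPKM at 9 months, and Jund at 179 to 186 RPKM at 26 months against 59.3 to 77.7 RPKM at 9 months, with no overlap.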

How the data were processed

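Stria cells were collected by pipette from enzymatically digested cochlear tissue, amplified with a low-input cDNA kit and sequenced. The authors mapped the reads in CLC Genomics Workbench (version not given in the sources used here) to mm10, the GRCm38 build, and deposited RPKM values, 1 per gene and library, each a mean over 4 runs. All values were multiples of 0.025 RPKM. No read counts were used, so depth and counting error are unknown, and strand-specific counting is not stated. Deposited columns with the authors' own fold changes and p-values were not used. One sheet heads the 26-month columns with another age, and the sample labels were followed.

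From these values, genes that reached 0.1 RPKM in 3 or more of the 6 libraries were fitted with limma 3.58.1 in R 4.3.3 on log2(RPKM + 0.1), with 1 mean for each of the 3 ages over all 9 libraries, a mean-variance trend and Benjamini-Hochberg adjustment over all genes tested. The script was tested on simulated data. Classes and families were set by gene symbol. The members and lists were chosen with earlier results of these data known, and Il1rn, Zfp36 and Ecm1 were moved between families after their values were seen. No set test was run.

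The rule for named genes took, in each class, the 6 called genes with the largest change in each direction, at least 5 RPKM at the age where they were higher and no overlap, leaving out the 10 genes that lead all called genes in each direction. It added the most changed called gene of each family at 2 RPKM or more and the 3 most abundant members of each class. Other genes were named from the called families, or as partners of named genes, after their values were seen. Coordinates are those of GENCODE M21 on GRCm38. The alternatives tried were other pseudocounts, filters, scalings, thresholds and fits, a replicate block, averaging of near-identical libraries (coefficient of variation under 2%) and leaving out each library. Some genes that met the rule are not reported here.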

Additional observations from a re-analysis of the deposited data

How the results depend on the processing

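Of 336 genes followed, 309 were called, and none of these changed sign under an alternative that tested it (206 of the 336 were tested with at least 1 RPKM required). Of genes not called, Slc12a2 was at -0.10 without 9-month B and Nfe2l1 at -0.03 with quantile normalization, which also sets Ptgds and Spp1 to no difference. The counts depended most on how scarce transcripts were weighed. With a pseudocount of 1 RPKM, 136 genes were called higher at 26 months and 175 lower, among them 4 and 15 transporters and channels, 10 and 8 receptors, 11 and 23 secreted factors and 14 and 11 transcription factors. With at least 1 RPKM required, which leaves fewer genes to test, 245 were higher and 384 lower, with 7 transporters and channels, 25 receptors, 16 secreted factors and 19 transcription factors higher, and 25 receptors and 31 secreted factors lower. With a pseudocount of 0.01 RPKM, 61 transcription factors were lower. Leaving out 1 library gave 504 to 538 genes higher and 644 to 684 lower. Deviations of same-letter libraries of the 2 ages correlated at -0.09, -0.03 and 0.21 over 11139 genes, and those of unlike letters at -0.25 to 0.21. With 3 libraries for each age, this cannot decide whether letters pair the ages. A replicate block by letter gave 516 higher and 635 lower and changed no call among the genes followed. Depth was unknown, so low values carry no counting error, and changes of genes near 0.1 RPKM are the least certain.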
